A study of Homo sapiens with 6 samples.

Results

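The genes of the translation initiation factors were examined in MDA-MB-231 cells with and without irradiation. They were taken as the protein-coding rows of the deposited expression table whose symbol begins with EIF and a digit from 1 to 6, which gave 56 of the 58735 genes in the table. MDA-MB-231 is an established line of human basal-like breast cancer cells, and those used here carry a non-targeting shRNA (shSCR), which both groups share. In the labels the libraries are called SCR, with WT as the genotype. Of the 6 libraries, 3 are from unirradiated cells (0 Gy) and 3 from cells that had received 10 Gy of gamma rays 24 h earlier. All libraries come from this 1 line, and the labels do not say whether the 3 libraries of a dose came from separate cultures, so the p-values measure the spread between these libraries. Levels are FPKM (fragments per kilobase of gene, scaled to library depth) as deposited. For 56 of 56 members the length used is that of all annotated exons of the gene together. It can exceed the length of a message, so levels of different genes can be compared only roughly. Gene positions are those of the table, on GRCh38.

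Reads recovered from FPKM, gene length and depth summed to between 15643641 and 28861781 per library, with 76 (EIF3CL) to 37197 (EIF4G2) behind a value of a tested member. The depth by which the deposited values were divided differed from the summed reads by a factor for each library. This factor was below 1 at 0 Gy (0.973 to 0.991) and above 1 at 10 Gy (1.03 to 1.04), and a factor above 1 lowers the FPKM. The summed FPKM was higher at 0 Gy (269611 to 278380) than at 10 Gy (246920 to 254918). A scaling that differs from the deposited one therefore moves all genes together, and the calls under other scalings are given beside the counts. All 5 genes listed for this line (VIM, CD44, EGFR and the keratins KRT18 and KRT19) were measured. Their summed level was 596 to 628 FPKM at 0 Gy and 527 to 539.9 FPKM at 10 Gy. In that sum KRT18 had a mean of 109 FPKM and KRT19 of 90.9 FPKM at 0 Gy, and neither is particular to basal-like or mesenchymal cells. The part of that difference in the results below was not tested. The 5 luminal and hormone receptor markers summed to 10.1 to 11.1 FPKM, with ERBB2 at a mean of 7.08 and GATA3 at 3.05 FPKM at 0 Gy, CDH1 and ESR1 under 1 FPKM and PGR listed at 0. The 4 blood cell markers and the 3 fibroblast markers each summed to under 1 FPKM in every library. These are bulk libraries, in which fewer cells of a type and less RNA per cell cannot be told apart.

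Translation of most mRNAs begins when the small ribosomal subunit is loaded with initiator tRNA by eIF2 and is joined by eIF1, eIF1A, eIF5 and the large scaffold eIF3. The cap-binding eIF4E, the scaffold eIF4G and the helicase eIF4A bring this complex to the mRNA, and it scans to the start codon before eIF5B joins the large subunit. The pathway is controlled mainly at 2 points. Kinases that phosphorylate eIF2 alpha block its exchange factor eIF2B, and the eIF4E-binding proteins, which mTORC1 phosphorylates, hold eIF4E away from eIF4G. The messages of the factors are measured here, not the proteins, their phosphorylation or the rate of translation.

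For both members of 2 paralog pairs, for the helicase gene that fell most and for the main scaffold EIF4G1, the sequence upstream of the gene is shown so that paralogs that moved alike or apart can be compared. RefSeq promoters (GRCh38.p14) were found for 47 of the 56 members, and EIF2AK1, EIF2S2, EIF3A, EIF3E, EIF3G, EIF3H, EIF3L, EIF3CL and EIF4EBP1 had no entry. The 120 bases before the deposited start of the gene are printed 5′ to 3′ on the gene's strand. Capitals mark CACGTG, the E-box core recognised by MYC with MAX. EIF5A lies at chr17:7306879-7306998 on the plus strand, EIF5A2 at chr3:170908694-170908813 on the minus strand, EIF1 at chr17:41688765-41688884 on the plus strand, EIF1B at chr3:40309564-40309683 on the plus strand, EIF4A3 at chr17:80147184-80147303 on the minus strand and EIF4G1 at chr3:184314375-184314494 on the plus strand.
EIF5A: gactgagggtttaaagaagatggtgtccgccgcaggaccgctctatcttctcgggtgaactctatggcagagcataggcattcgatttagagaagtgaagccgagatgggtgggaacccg
EIF5A2: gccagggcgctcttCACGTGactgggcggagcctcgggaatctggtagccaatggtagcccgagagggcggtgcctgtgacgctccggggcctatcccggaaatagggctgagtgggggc
EIF1: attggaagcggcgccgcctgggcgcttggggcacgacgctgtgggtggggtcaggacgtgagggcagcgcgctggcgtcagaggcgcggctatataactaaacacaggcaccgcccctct
EIF1B: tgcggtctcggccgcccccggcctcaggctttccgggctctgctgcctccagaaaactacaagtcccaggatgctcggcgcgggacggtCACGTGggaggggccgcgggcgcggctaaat
EIF4A3: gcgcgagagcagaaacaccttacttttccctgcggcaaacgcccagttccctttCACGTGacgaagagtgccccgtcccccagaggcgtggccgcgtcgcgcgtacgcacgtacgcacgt
EIF4G1: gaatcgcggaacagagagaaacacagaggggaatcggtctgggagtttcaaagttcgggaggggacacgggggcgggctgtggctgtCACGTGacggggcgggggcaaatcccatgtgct

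The window of EIF5A holds no CACGTG and that of its paralog EIF5A2 holds 1, and of EIF1 and EIF1B it is again the less abundant paralog whose window holds it. The windows of EIF4A3 and EIF4G1 hold 1 each. Among the 42 tested members with a RefSeq promoter, CACGTG, which is its own reverse complement, was found in the 250 bases before the start of 11 (26.2%), beside 9.18% of the 8451 tested genes with a promoter. It was in 7 of the 24 that fell after 10 Gy and in 4 of the 18 that did not pass the test. The ETS core CCGGAAG, read on both strands, was in 8 of 42 (19.0%), beside 17.6% of all tested promoters. TGATGNAA (the C/EBP-ATF element bound by ATF4), AAGATGGCG (YY1) and the NRF1 palindrome were in 0 of the 42 windows on either strand, beside 1.28%, 1.18% and 2.15% of all tested promoters. No motif searched contains another, and a match is a description of the sequence only. A start of C followed by at least 4 pyrimidines, as in the messages whose translation mTORC1 and LARP1 control, stood at the RefSeq start of 9 of 42 members (21.4%) and of 5.64% of all tested genes. These were EIF2A, EIF2D, EIF2S3, EIF3D, EIF3F, EIF3K, EIF3M, EIF4A2 and EIF4B. Of the 9, 4 fell after 10 Gy, with a median log2 change of -0.11, and of the other 33, 20 fell, with a median of -0.16.

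At 0 Gy the initiation factor genes were among the abundant messages of these cells. 51 of the 56 had a mean of 1 FPKM or more, and these 51 were tested. Their median level was 28.5 FPKM, beside 7.11 FPKM over all 12128 genes tested, and their median percentile among those genes was 85.0. EIF5A was the most abundant member (328 ± 6.99 FPKM, SD, n = 3), followed by EIF6, EIF1, EIF4H, EIF4G2, EIF3I, EIF4G1 and EIF2S2, which make 8 members at 100 FPKM or more. Neighbours in this order often could not be told apart: the libraries of EIF1 (160.3 ± 9.47 FPKM, SD, n = 3) overlapped with those of EIF6, EIF4H and EIF4G2, and those of EIF3I (132 ± 7.50 FPKM) with those of EIF4G1 (132 ± 2.35 FPKM). 13 of the 51 were below 10 FPKM. The libraries of a dose lay close together: the highest library was less than 1.2 times the lowest for 49 of 51 members at 0 Gy and for 48 at 10 Gy.

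**Figure D1:**
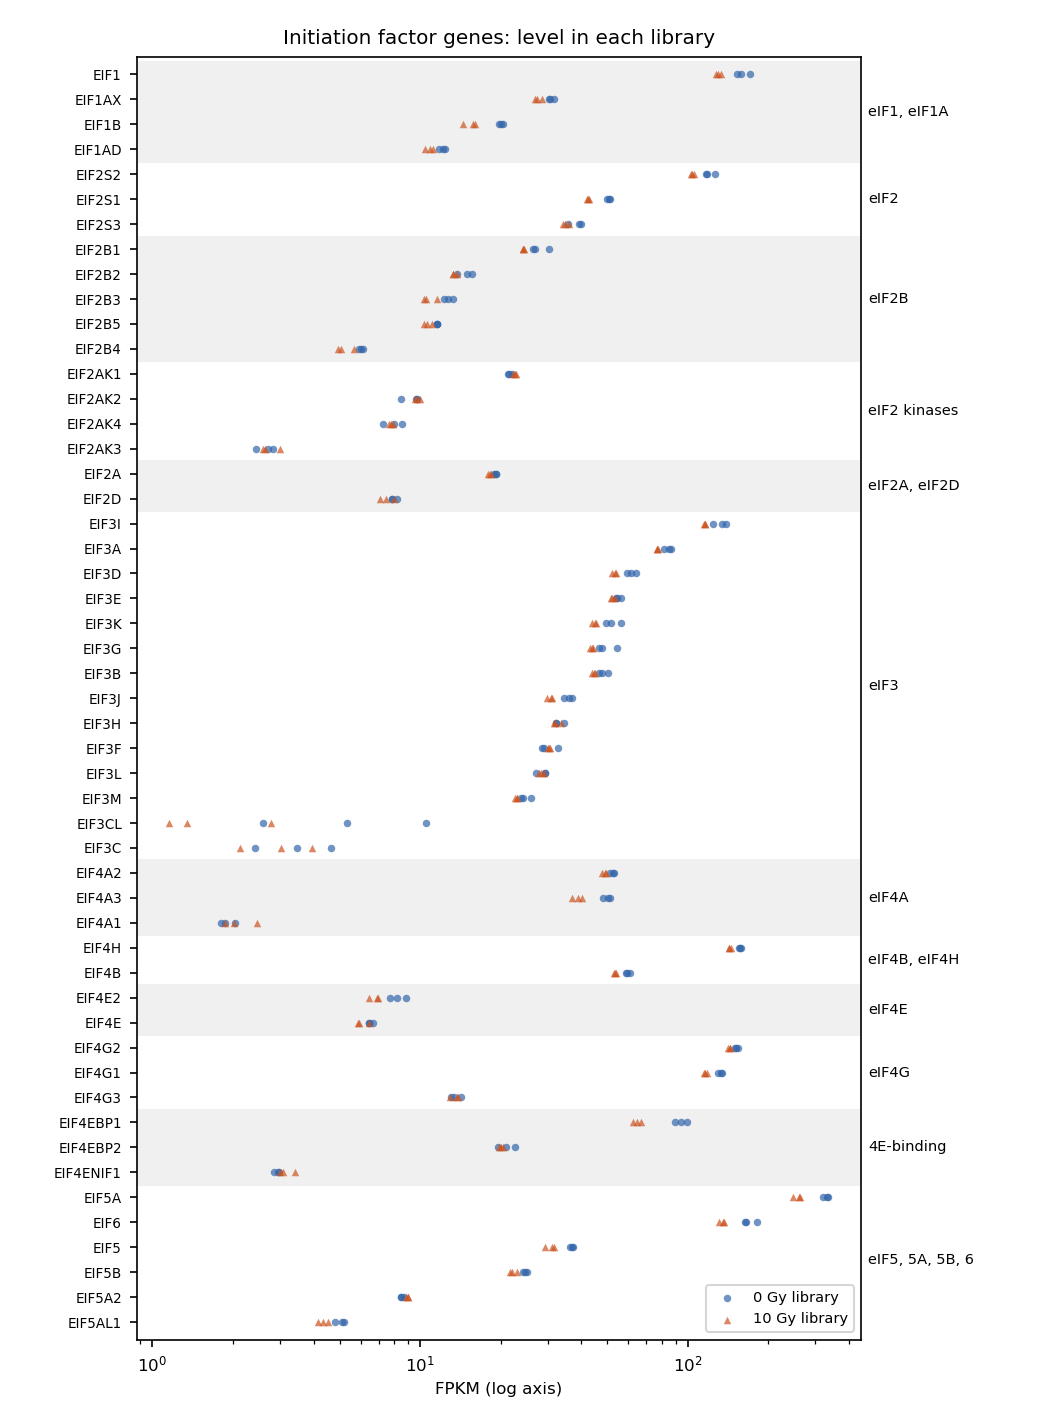
Level of each of the 51 tested initiation factor genes, grouped by factor class. The horizontal axis is FPKM on a log axis, circles are the 3 libraries at 0 Gy and triangles the 3 at 10 Gy. The triangles lie below all circles for 33 genes and above all circles for 3, on the deposited FPKM scale.

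The other 5 members were not tested. EIF4E1B, an oocyte form of eIF4E, is listed at 0 in every library. EIF4EBP3, an eIF4E-binding protein, had a mean of 0.158 FPKM at 0 Gy and 0.379 FPKM at 10 Gy, from 0 to 7 reads per library, and EIF4E3 had 0.326 and 0.291 FPKM. EIF2S3B, a copy of the gene of the eIF2 gamma subunit, had 0.827 and 0.775 FPKM. EIF1AY is counted as a member and its values are not given. For EIF4E3 and EIF4EBP3, 84.4% and 65.7% of the coding bases are also exon of another gene on the same strand.

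The comparison of 10 Gy with 0 Gy used limma on log2(FPKM + 1) for the 12128 genes averaging 1 FPKM or more, and a gene was called at a Benjamini-Hochberg adjusted p under 0.05. All log2 changes are on that scale, on which the changes of genes at low levels come out too small, and values after ± beside a log2 change are standard errors (SE). Of the 51 members, 28 were lower after 10 Gy and 0 were higher, while 23 did not pass the test. Over all genes tested, 35.6% were called, 23.7% lower and 11.9% higher. At an unadjusted limma p under 0.05, 34 members passed, beside 5666 of the 12128 genes tested. The members' median log2 change was -0.14, beside -0.04 over all genes, and 40 of 51 lay below the median of all genes. The libraries at 10 Gy were all below those at 0 Gy for 33 members and all above them for 3, beside 32.8% and 19.1% of all genes. On the log2(FPKM + 1) scale, 2 members were called lower by at least 1.3-fold (EIF4EBP1 and EIF3CL) and 0 were called higher by as much, beside 2.95% and 2.82% of all genes. In the ratio of mean FPKM, without the added 1, EIF1B (0.767) also lay past that fold.

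The count depended on the scaling and on single libraries. On values scaled to a common sum in each library (TPM), which raised the median change of all genes by 0.106 on the log2 scale, 8 members were lower and 5 higher, and among all genes 1071 were lower and 3127 higher in place of 2874 and 1443. With each library's factor removed, an alternative added after the values were seen, 15 members were lower and 2 higher (1651 and 2295 of all genes). The other scalings left the counts near those reported. Upper quartile scaling gave 30 members lower and 0 higher (2979 and 1415 of all genes), and median-of-ratios scaling 27 and 0 (2753 and 1486). Without 10 Gy library 1 and without 10 Gy library 2, 17 and 16 members were lower and 0 were higher. Relative to the other genes the position moved less: under each of the 16 alternatives the members' median minus the median of all genes lay between -0.143 and -0.0657 on the log2 scale. Genes at these levels also fell more often. Among the 3032 most abundant genes at 0 Gy (17.5 FPKM or more), a split added after the values were seen, 48% were lower, and 22 of the 33 members there were, with medians of -0.13 and -0.16. This split ranked genes by the 0 Gy libraries alone, which can itself favour falls, and the size of that effect was not tested.

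**Figure D2:**
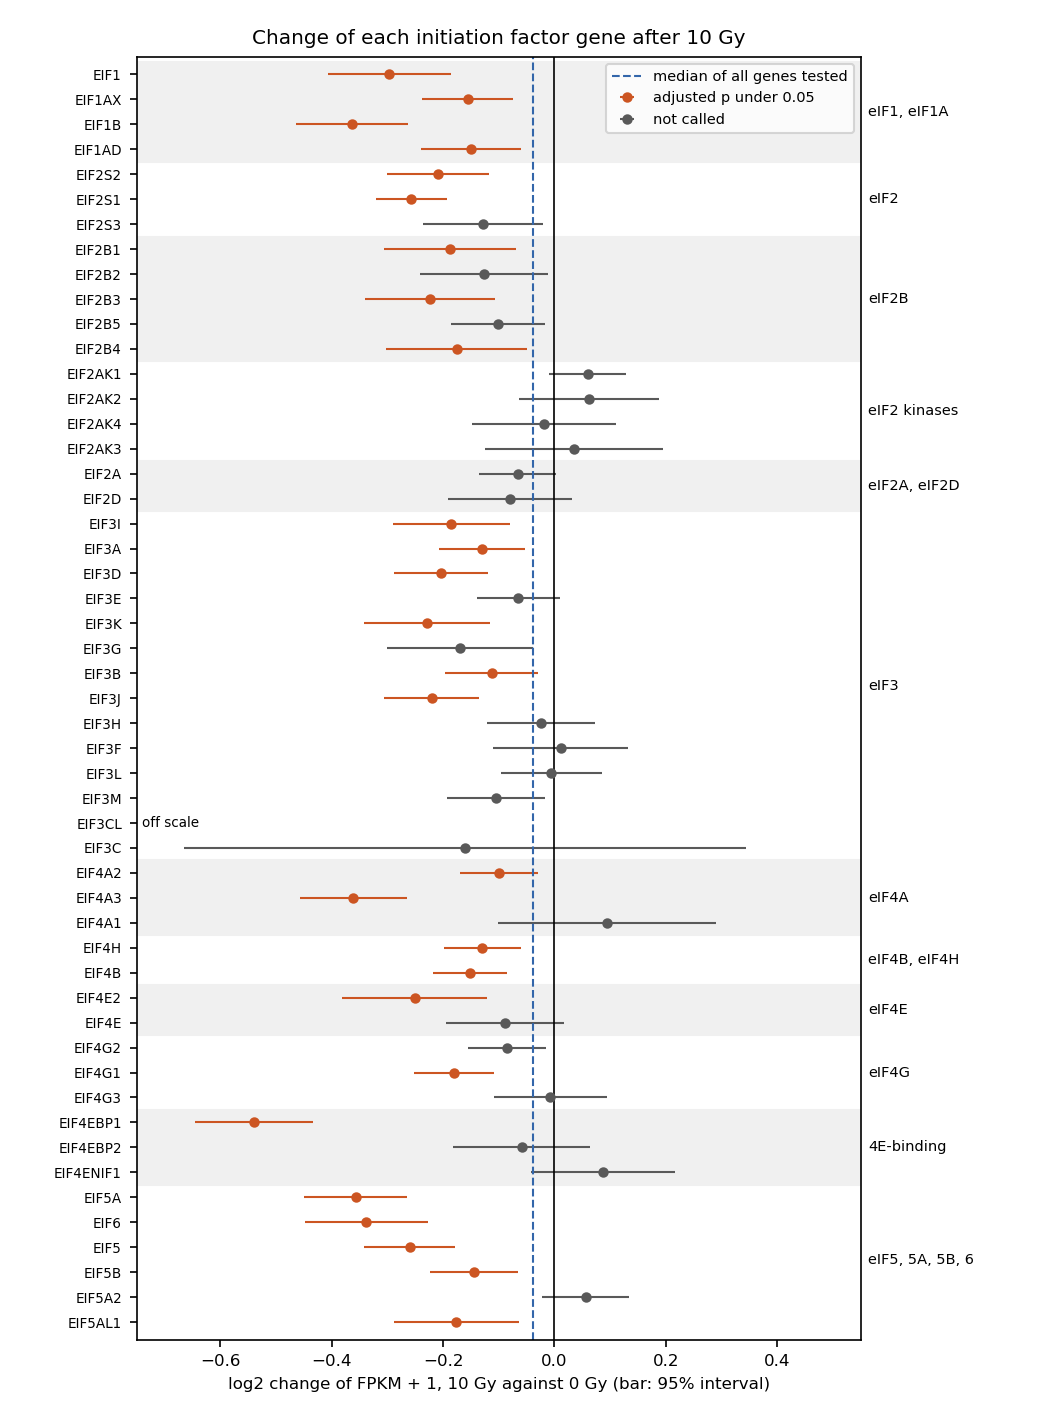
Change of each tested initiation factor gene after 10 Gy, by factor class. The horizontal axis is the log2 change of FPKM + 1 (10 Gy against 0 Gy) with its 95% interval from limma, orange points passed the test, grey points did not, and the dashed line is the median of all genes (-0.04); EIF3CL (-1.26) is beyond the axis. The 28 called genes all lie below the dashed line on the deposited scale, where on the TPM scale 8 genes were lower and 5 higher.

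**Figure D3:**
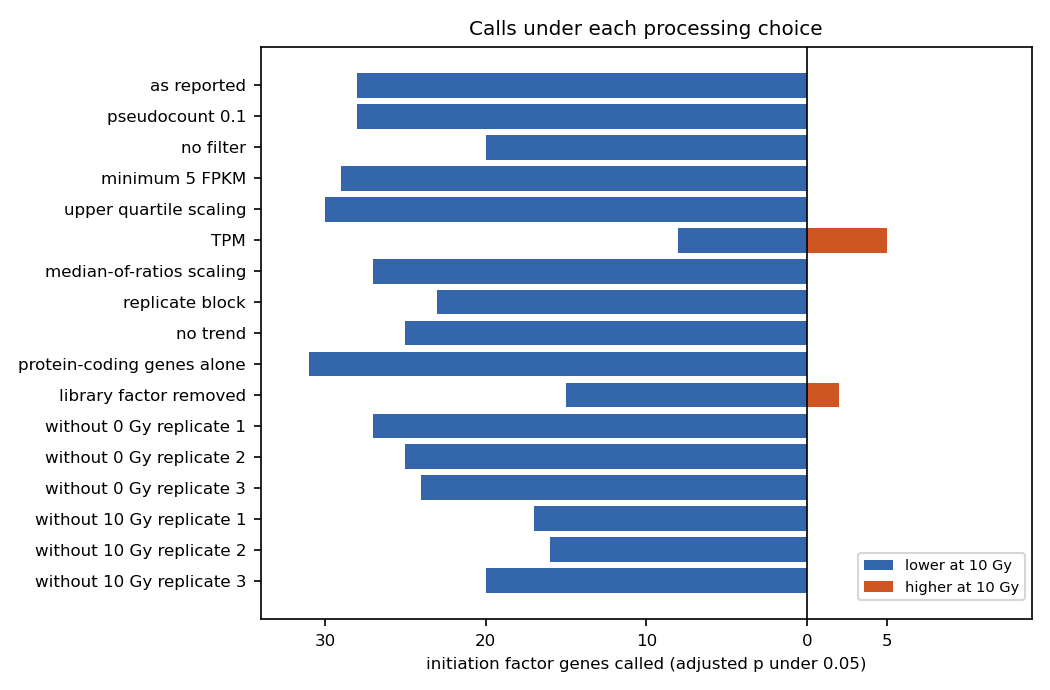
Number of initiation factor genes called under each processing choice. Bars to the left count genes lower at 10 Gy and bars to the right genes higher at 10 Gy. The count lower runs from 8 (TPM) to 31 (protein-coding genes alone), and genes were called higher under TPM (5) and with the library factor removed (2).

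8 members kept a lower call in all 16 alternatives: EIF4EBP1, EIF1B, EIF4A3, EIF5A, EIF6, EIF1, EIF5 and EIF2S1. The share of all genes that kept a lower call in every alternative was not counted. On the TPM scale alone, 1071 of the 12128 genes tested were lower. The other 20 called members lost the call under at least 1 alternative, and 2 of them, EIF3B and EIF4A2, changed sign on the TPM scale. The 8 come from 5 of the 12 factor classes. Their smallest change was that on the TPM scale for each gene, from -0.41 for EIF4EBP1 to -0.13 for EIF2S1 on the log2 scale.

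As a ratio of summed levels, the largest class change lay with the eIF4E-binding proteins, where 1 of 3 tested members was called. In FPKM, the sum of the class of subunit joining and elongation fell by more (574 to 457 FPKM). EIF4EBP1 encodes 4E-BP1, which holds the cap-binding protein in an inactive complex until mTORC1 phosphorylates it. Its level was 99.5, 89.7 and 94.2 FPKM at 0 Gy and 64.8, 62.6 and 66.6 FPKM at 10 Gy. The groups did not overlap, and the mean was 31.6% lower after irradiation (log2 change -0.54 ± 0.045 SE, limma adjusted p = 0.000598). Across the alternatives its log2 change lay between -0.58 and -0.41. Its paralog EIF4EBP2 was at 19.5, 22.6 and 20.9 FPKM at 0 Gy and 20.03, 20.5 and 19.7 FPKM at 10 Gy, and these groups overlapped (log2 change -0.06 ± 0.053 SE, limma adjusted p = 0.414). EIF4ENIF1, the carrier that takes eIF4E into the nucleus, was the least abundant tested member of the class, at 2.85, 2.95 and 2.96 FPKM at 0 Gy and 3.42, 3.08 and 3.01 FPKM at 10 Gy. Its libraries at 10 Gy were all above those at 0 Gy, without a call (log2 change 0.09 ± 0.055 SE, limma adjusted p = 0.252). The summed level of the class was 119 ± 3.46 FPKM at 0 Gy and 88.3 ± 1.61 FPKM at 10 Gy (SD, n = 3), a ratio of 0.745, and EIF4EBP1 made most of this sum.

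Of the cap-binding eIF4E genes and the eIF4G scaffolds, 1 of each class was called lower on the deposited scale, and neither call held on the TPM scale. EIF4E2 encodes 4EHP, a cap-binding protein that represses translation. It was at 8.83, 8.22 and 7.70 FPKM at 0 Gy and 6.93, 6.42 and 6.95 FPKM at 10 Gy, and all libraries at 10 Gy were below those at 0 Gy (log2 change -0.25 ± 0.055 SE, limma adjusted p = 0.0127). Of the EIF4E2 exon bases 24.2% are also exon of other genes on the opposite strand. EIF4E, the cap-binding subunit itself, was at 6.45, 6.44 and 6.67 FPKM at 0 Gy and 6.45, 5.93 and 5.86 FPKM at 10 Gy, and the groups overlapped (log2 change -0.09 ± 0.045 SE, limma adjusted p = 0.166). The deposited length of EIF4E is 14067 bases, and its pseudogene EIF4EP2 had 227 to 363 reads per library, so reads may be divided between them. EIF4G1, the main scaffold that bridges cap and ribosome, fell: it was at 133, 134 and 129.7 FPKM at 0 Gy and 118, 116 and 115 FPKM at 10 Gy (log2 change -0.18 ± 0.031 SE, limma adjusted p = 0.00482), without overlap. EIF4G2, which encodes a scaffold that lacks the eIF4E-binding site, was the most abundant of the class at 149.8, 154 and 151 FPKM at 0 Gy and 144, 141 and 144 FPKM at 10 Gy. It did not overlap either but missed the threshold (log2 change -0.09 ± 0.03 SE, limma adjusted p = 0.0626). EIF4G3 was at 13.1, 14.2 and 13.4 FPKM at 0 Gy and 13.7, 13.8 and 12.9 FPKM at 10 Gy, with overlapping doses and a 95% interval of the change from -0.11 to 0.09 (log2 change -0.0075 ± 0.043 SE, limma adjusted p = 0.907).

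Of the eIF4A genes, EIF4A3 fell most. EIF4A3 is the helicase of the exon junction complex rather than of cap-dependent initiation. The gene (ENSG00000141543, chromosome 17 from 80135214 to 80147183) was at 51.3, 48.4 and 50.3 FPKM at 0 Gy and 38.9, 37.0 and 40.3 FPKM at 10 Gy, and the doses did not overlap, with a mean 22.6% lower after 10 Gy (log2 change -0.36 ± 0.041 SE, limma adjusted p = 0.00127). EIF4A2, an initiation helicase, was at 52.7, 52.8 and 51.2 FPKM at 0 Gy and 47.7, 49.0 and 49.4 FPKM at 10 Gy (log2 change -0.10 ± 0.03 SE, limma adjusted p = 0.0382). That small fall turned to +0.03 on the TPM scale, without a call. EIF4A1, usually the most abundant of these helicases, is listed at only 1.81, 1.87 and 2.03 FPKM at 0 Gy and 2.46, 2.01 and 1.86 FPKM at 10 Gy (log2 change 0.09 ± 0.083 SE, limma adjusted p = 0.406). In the annotation 86.8% of its coding bases are exon of another gene on the same strand (AC016876.2 and the read-through SENP3-EIF4A1), so its listed level, and with it any ratio to EIF4A2, is uncertain. The helicase cofactors EIF4H and EIF4B both fell without overlap on the deposited scale, and neither was called on the TPM scale (-0.0019 and -0.03 on the log2 scale, limma adjusted p = 0.968 and 0.561) or with the library factor removed. EIF4H was at 156, 158 and 157 FPKM at 0 Gy and 142, 145 and 143 FPKM at 10 Gy (log2 change -0.13 ± 0.029 SE, limma adjusted p = 0.0142) and EIF4B at 59.3, 60.7 and 58.6 FPKM at 0 Gy and 53.4, 54.0 and 53.2 FPKM at 10 Gy (log2 change -0.15 ± 0.028 SE, limma adjusted p = 0.00704). Of the EIF4B coding bases 21.7% are also exon of AC068888.1 on the opposite strand.

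In the class of subunit joining and elongation, 5 of 6 members fell on the deposited scale and 3 on the TPM scale, and the summed level went from 574 ± 15.7 to 457 ± 11.5 FPKM (SD, n = 3), a ratio of 0.796. EIF5A encodes the hypusine-bearing protein that helps ribosomes past difficult peptide bonds. The gene (ENSG00000132507, chromosome 17 from 7306999 to 7312463) was at 334, 321 and 330.3 FPKM at 0 Gy and 259.6, 247 and 262 FPKM at 10 Gy, with no overlap and a mean 22.0% lower (log2 change -0.36 ± 0.039 SE, limma adjusted p = 0.00117). In the annotation 37.2% of the coding bases of EIF5A are also exon of GPS2 on the opposite strand, and the strand of the libraries is not given. Its paralog EIF5A2 had a change of the opposite sign under every alternative and was at 8.49, 8.49 and 8.74 FPKM at 0 Gy and 8.83, 9.04 and 8.99 FPKM at 10 Gy. All libraries of EIF5A2 at 10 Gy were above those at 0 Gy, though by a change that did not pass the test (log2 change 0.06 ± 0.033 SE, limma adjusted p = 0.227). On the TPM scale EIF5A2 was called higher (log2 change 0.17, limma adjusted p = 0.0137), and likewise with the library factor removed (0.12, limma adjusted p = 0.0338).

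EIF6, which keeps the large ribosomal subunit from joining too early (ENSG00000242372, chromosome 20 from 35278911 to 35284985), was at 182, 165 and 164 FPKM at 0 Gy and 136, 131 and 136 FPKM at 10 Gy, a fall of 21.1% in the mean (log2 change -0.34 ± 0.047 SE, limma adjusted p = 0.00249). 33.3% of its coding bases are shared with AL121753.1, which had 12 reads at most in a library. EIF5, the GTPase-activating protein of eIF2 (ENSG00000100664, chromosome 14 from 103333544 to 103345025), was at 36.4, 36.8 and 37.4 FPKM at 0 Gy and 29.4, 31.5 and 31.0 FPKM at 10 Gy (log2 change -0.26 ± 0.035 SE, limma adjusted p = 0.00216), again without overlap. EIF5B, the GTPase of subunit joining, was at 25.1, 24.7 and 24.2 FPKM at 0 Gy and 22.0, 21.6 and 23.0 FPKM at 10 Gy (log2 change -0.14 ± 0.034 SE, limma adjusted p = 0.0159). EIF5AL1, an intronless copy of EIF5A, was the least abundant of the class at 5.20, 4.79 and 5.10 FPKM at 0 Gy and 4.52, 4.17 and 4.33 FPKM at 10 Gy (log2 change -0.18 ± 0.048 SE, limma adjusted p = 0.0268). EIF5AL1 shares stretches of 100 bases with EIF5A, so part of its reads may come from that gene.

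**Figure D4:**
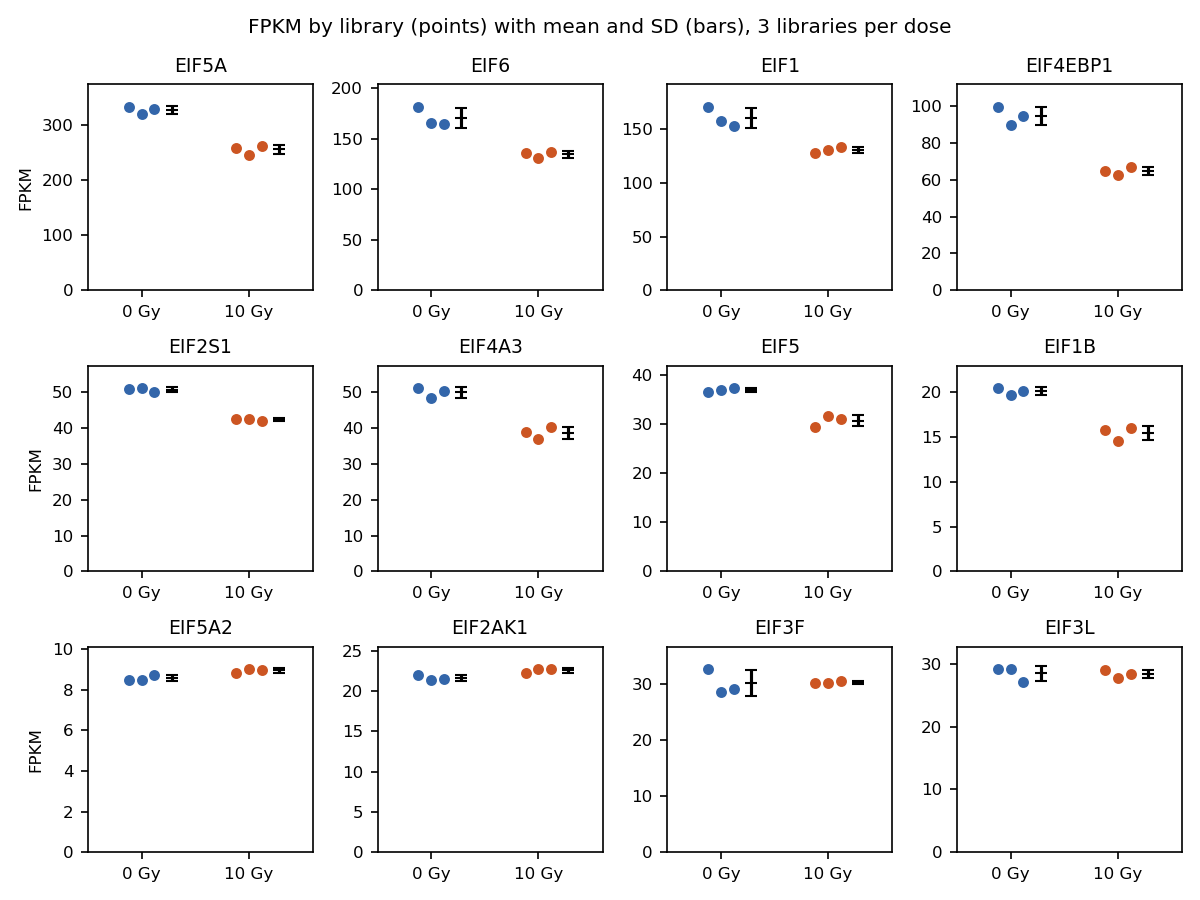
FPKM in each library for 12 initiation factor genes, at 0 Gy and 10 Gy. Points are libraries and the bars beside them the mean with SD (n = 3), on axes that start at 0. The upper 8 panels are the genes lower in all alternatives, and the lower row shows EIF5A2, EIF2AK1, EIF3F and EIF3L, which were not called on the deposited scale and were called higher on the TPM scale.

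All 4 tested genes of start codon scanning fell (2 of them, EIF1 and EIF1B, also on the TPM scale), and their sum went from 223 ± 10.5 to 184 ± 4.16 FPKM (SD, n = 3). EIF1 guards the accuracy of start codon choice (ENSG00000173812, chromosome 17 from 41688885 to 41692668) and was at 171, 157 and 153 FPKM at 0 Gy and 128, 130.1 and 133 FPKM at 10 Gy. The doses did not overlap, and the mean was 18.8% lower (log2 change -0.30 ± 0.047 SE, limma adjusted p = 0.00389). Its paralog EIF1B (ENSG00000114784, chromosome 3 from 40309684 to 40312424) was at 20.5, 19.7 and 20.1 FPKM at 0 Gy and 15.7, 14.5 and 16.0 FPKM at 10 Gy, lower in every library at 10 Gy and by 23.3% in the mean (log2 change -0.36 ± 0.043 SE, limma adjusted p = 0.00144). EIF1AX, the X-linked gene of eIF1A, was at 31.5, 30.4 and 30.4 FPKM at 0 Gy and 26.8, 27.3 and 28.5 FPKM at 10 Gy (log2 change -0.16 ± 0.035 SE, limma adjusted p = 0.0129). EIF1AD, which encodes a relative of eIF1A with a role in small-subunit maturation, was the least abundant of the 4 at 12.2, 12.4 and 11.8 FPKM at 0 Gy and 10.9, 10.4 and 11.2 FPKM at 10 Gy (log2 change -0.15 ± 0.038 SE, limma adjusted p = 0.0212).

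Of the 3 tested eIF2 subunits, which carry the initiator tRNA, the alpha and beta subunits fell, the alpha subunit alone on the TPM scale. EIF2S1 encodes eIF2 alpha, the subunit that the stress kinases phosphorylate. The gene (ENSG00000134001, chromosome 14 from 67359997 to 67386516) was at 50.9, 51.3 and 50.0 FPKM at 0 Gy and 42.6, 42.5 and 41.9 FPKM at 10 Gy, a narrow spread at both doses with no overlap (log2 change -0.26 ± 0.027 SE, limma adjusted p = 0.00104). EIF2S2 was the most abundant of the class at 127, 117 and 118 FPKM at 0 Gy and 104, 102 and 106 FPKM at 10 Gy (log2 change -0.21 ± 0.039 SE, limma adjusted p = 0.00702), and 13.7% of its 100-base stretches also occur in EIF2S2P4. EIF2S3, the gamma subunit, was at 35.8, 39.9 and 39.4 FPKM at 0 Gy and 34.2, 35.9 and 34.9 FPKM at 10 Gy. Here 0 Gy library 1 lay below 10 Gy library 2, and the difference missed the threshold (log2 change -0.13 ± 0.046 SE, limma adjusted p = 0.0659).

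The exchange factor eIF2B, which reloads eIF2 with GTP, has 5 subunits, and 3 of their genes fell on the deposited scale and 0 on the TPM scale. EIF2B1 (alpha) was the most abundant at 30.2, 26.8 and 26.5 FPKM at 0 Gy and 24.2, 24.4 and 24.3 FPKM at 10 Gy (log2 change -0.19 ± 0.05 SE, limma adjusted p = 0.026). EIF2B3 (gamma) was at 12.7, 13.2 and 12.3 FPKM at 0 Gy and 10.5, 10.3 and 11.6 FPKM at 10 Gy (log2 change -0.22 ± 0.05 SE, limma adjusted p = 0.0136). EIF2B4 (delta) was the least abundant at 6.15, 6.02 and 5.90 FPKM at 0 Gy and 5.69, 5.06 and 4.94 FPKM at 10 Gy (log2 change -0.18 ± 0.054 SE, limma adjusted p = 0.0401). For all 3 the doses did not overlap. EIF2B2 and EIF2B5 had log2 changes of -0.13 ± 0.049 and -0.10 ± 0.036 and were not called (limma adjusted p = 0.0841 and 0.0629).

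None of the 4 eIF2 alpha kinases was called, and on the deposited scale theirs was the single class with a positive median change (0.05 on the log2 scale). On the TPM scale their median was 0.15, and the medians of 4 other classes were positive as well, from 0.03 to 0.06. EIF2AK1 (HRI, the haem and mitochondrial stress kinase) was the most abundant at 22.0, 21.3 and 21.5 FPKM at 0 Gy and 22.2, 22.8 and 22.7 FPKM at 10 Gy. The 10 Gy libraries were all above those at 0 Gy by a small step that was not called (log2 change 0.06 ± 0.029 SE, limma adjusted p = 0.155). It was called higher on the TPM scale (log2 change 0.18, limma adjusted p = 0.0040) and with the library factor removed (0.13, limma adjusted p = 0.012). EIF2AK3 (PERK, the kinase of the endoplasmic reticulum) was the least abundant at 2.71, 2.43 and 2.83 FPKM at 0 Gy and 2.64, 2.59 and 3.01 FPKM at 10 Gy, with overlapping doses (log2 change 0.03 ± 0.068 SE, limma adjusted p = 0.716). EIF2AK2 (PKR, activated by double-stranded RNA) and EIF2AK4 (GCN2, activated by amino acid shortage) had log2 changes of 0.06 ± 0.054 and -0.02 ± 0.055 (limma adjusted p = 0.394 and 0.816). The 95% intervals of the 4 kinases reached from -0.15 to 0.20. EIF2A and EIF2D, which can deliver initiator tRNA without eIF2, were at 19.1 and 7.96 FPKM at 0 Gy and were not called either (log2 changes of -0.07 ± 0.029 and -0.08 ± 0.048).

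The eIF3 complex is the largest factor, and its 14 genes summed to 645 ± 19.5 FPKM at 0 Gy and 581 ± 3.13 FPKM at 10 Gy (SD, n = 3), a ratio of 0.901. On the deposited scale 7 genes fell and 7 were not called, whereas on the TPM scale 0 were lower and 3 higher. EIF3I was the most abundant at 138, 134 and 124 FPKM at 0 Gy and 116, 116 and 115 FPKM at 10 Gy (log2 change -0.18 ± 0.045 SE, limma adjusted p = 0.0177). EIF3A, the largest subunit and part of the core, was at 81.5, 86.8 and 85.4 FPKM at 0 Gy and 76.9, 76.7 and 77.7 FPKM at 10 Gy (log2 change -0.13 ± 0.033 SE, limma adjusted p = 0.0205). EIF3B, its partner in the core, was at 50.4, 46.7 and 47.7 FPKM at 0 Gy and 45.1, 44.0 and 44.5 FPKM at 10 Gy, a fall that turned to +0.01 on the TPM scale (log2 change -0.11 ± 0.035 SE, limma adjusted p = 0.0433). All 3 genes had no overlap between the doses.

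EIF3D, the subunit able to bind the cap, was at 63.9, 59.4 and 61.2 FPKM at 0 Gy and 53.5, 52.2 and 54.1 FPKM at 10 Gy (log2 change -0.20 ± 0.036 SE, limma adjusted p = 0.0056). EIF3J, a loosely bound subunit, was at 34.6, 36.0 and 37.0 FPKM at 0 Gy and 31.0, 31.2 and 29.8 FPKM at 10 Gy (log2 change -0.22 ± 0.036 SE, limma adjusted p = 0.00429). EIF3K was at 56.5, 51.9 and 49.7 FPKM at 0 Gy and 45.4, 43.9 and 44.9 FPKM at 10 Gy (log2 change -0.23 ± 0.048 SE, limma adjusted p = 0.0108). For these 3 genes all libraries at 10 Gy were below those at 0 Gy, and all 3 kept a lower call with the library factor removed but lost it on the TPM scale (EIF3D -0.08, EIF3J -0.10 and EIF3K -0.10 on the log2 scale, limma adjusted p = 0.0762, 0.150 and 0.0841).

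The members of eIF3 that were not called did not move as 1 block. EIF3G, EIF3M and EIF3E had log2 changes of -0.17 ± 0.056, -0.11 ± 0.037 and -0.06 ± 0.032 (limma adjusted p = 0.0515, 0.0635 and 0.15). EIF3F, EIF3H and EIF3L were at 30.2 ± 2.28 FPKM, 33.0 ± 1.36 FPKM and 28.5 ± 1.201 FPKM at 0 Gy, with log2 changes of 0.01 ± 0.052, -0.02 ± 0.041 and -0.0061 ± 0.039. On the TPM scale these 3 were called higher, by 0.14, 0.10 and 0.12. In EIF3L 41.1% of the exon bases are also exon of AL022311.1 on the same strand.

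EIF3C and EIF3CL cannot be read separately. They are near-identical copies: 95.2% of the 100-base stretches of EIF3CL also occur in EIF3C. EIF3CL was at 2.59, 10.5 and 5.33 FPKM at 0 Gy and 1.16, 1.35 and 2.76 FPKM at 10 Gy, and it was called lower (log2 change -1.26 ± 0.41 SE, limma adjusted p = 0.0473) although the doses overlapped. EIF3C was at 4.65, 3.47 and 2.43 FPKM at 0 Gy and 2.12, 3.94 and 3.03 FPKM at 10 Gy (log2 change -0.16 ± 0.21 SE, limma adjusted p = 0.591). It had the lowest listed level of the class, but 42.9% of its 100-base stretches also occur in other genes, so that level is uncertain. Of the reads given to either copy, EIF3CL took 19.8%, 57.2% and 49.3% at 0 Gy and 19.5%, 13.1% and 28.8% at 10 Gy. Without 0 Gy library 2 the change of EIF3CL was -0.84 on the log2 scale and its call was lost (limma adjusted p = 0.0860), and without 0 Gy library 3, 10 Gy library 1 or 10 Gy library 2 the call was lost as well (limma adjusted p = 0.0996, 0.133 and 0.131).

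Ratios within a library do not depend on how the library is scaled. Their size depends on the deposited gene lengths, but their log2 difference between the doses does not. Of 8 pairs of paralogs or partners, 5 had ratios at 10 Gy that lay all below those at 0 Gy. EIF5A was 39.4, 37.8 and 37.8 times the level of EIF5A2 at 0 Gy and 29.4, 27.3 and 29.2 times at 10 Gy, a log2 difference of -0.42. EIF4EBP1 was 5.11, 3.98 and 4.51 times EIF4EBP2 at 0 Gy and 3.24, 3.06 and 3.38 times at 10 Gy (log2 difference -0.48). Against EIF4E, the protein it binds, EIF4EBP1 was at 15.4, 13.9 and 14.1 times and then at 10.1, 10.6 and 11.4 times (log2 difference -0.44). All 3 ratios were thus lower in each library at 10 Gy than in any library at 0 Gy.

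The scaffold ratios moved less. EIF4G1 over EIF4G3 went from 9.76 ± 0.373 to 8.65 ± 0.258 (SD, n = 3), and EIF4G1 over EIF4G2 from 0.873 ± 0.0152 to 0.817 ± 0.0146 (SD, n = 3). Each of these 5 ratios had a two-sided exact permutation p of 0.1, which is the smallest that 3 libraries against 3 can give, so no ratio could pass 0.05 (0.16 after Benjamini-Hochberg adjustment over the 8 pairs). EIF1 over EIF1B overlapped between the doses (7.98 ± 0.385 and 8.47 ± 0.448, exact permutation p = 0.3). EIF4E over EIF4E2 (0.794 ± 0.0683 and 0.899 ± 0.0486) and EIF4A1 over EIF4A2 (0.0365 ± 0.00284 and 0.0434 ± 0.00728) overlapped as well (SD, n = 3, exact permutation p = 0.2 each).

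**Figure D5:**
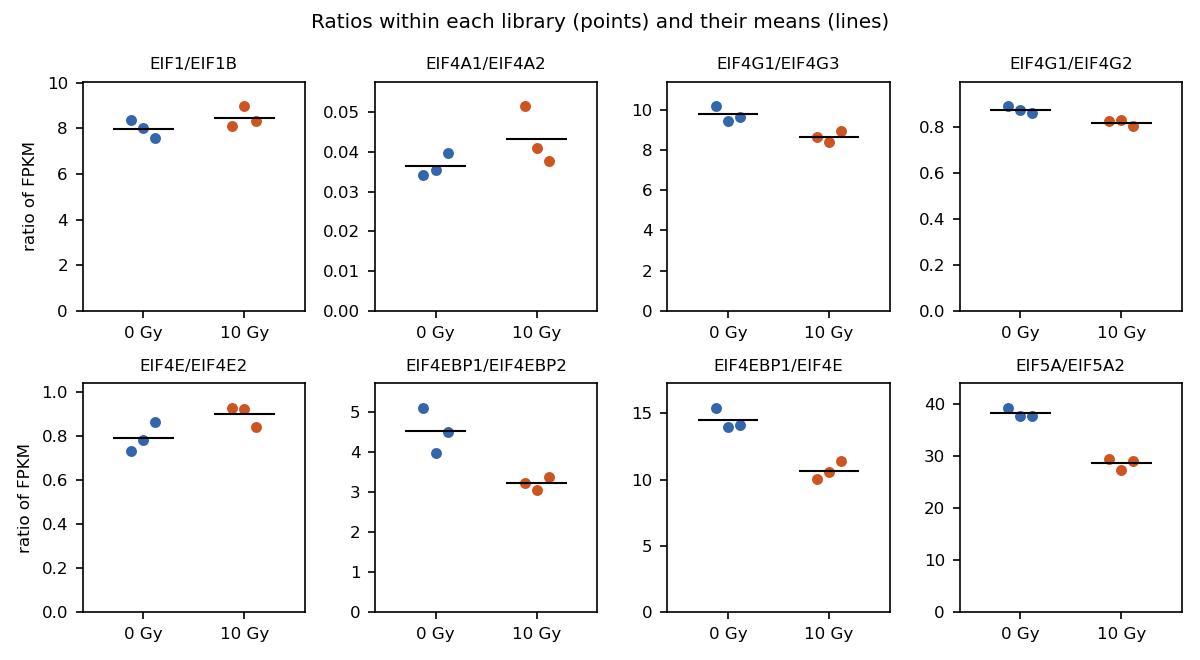
Ratio of FPKM within each library for 8 pairs of initiation factor genes at 0 Gy and 10 Gy. Points are libraries, lines are means and the axes start at 0. The ratios of EIF5A to EIF5A2, of EIF4EBP1 to EIF4EBP2 and to EIF4E, and of EIF4G1 to EIF4G3 and EIF4G2 do not overlap between the doses, and the other 3 do.

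The other genes of translation control were read from 7 lists with 65 genes, of which 61 were tested. 26 were lower, 3 were higher and 32 were not called, with a median log2 change of -0.11, beside the 23.7% lower and 11.9% higher over all genes. On the TPM scale 9 were lower and 12 higher, with the library factor removed 13 and 7, and without 10 Gy library 1 and 2 14 and 15 were lower. Among the genes of mTORC1 and eIF4F control, 4 of 15 fell, a share close to that over all genes, and 3 rose. DDIT4 (REDD1), a stress-induced inhibitor of mTORC1, was the single tested gene of the lists called higher by at least 1.3-fold on the log2(FPKM + 1) scale. It was at 27.5, 22.9 and 22.8 FPKM at 0 Gy and 31.6, 33.5 and 33.4 FPKM at 10 Gy, without overlap (log2 change 0.42 ± 0.071 SE, limma adjusted p = 0.00494). MTOR, the kinase itself, was at 7.29, 8.95 and 8.63 FPKM at 0 Gy and 9.16, 9.28 and 8.96 FPKM at 10 Gy and was not called (log2 change 0.13 ± 0.068 SE, limma adjusted p = 0.179), although its 10 Gy libraries were all above those at 0 Gy. On the TPM scale MTOR was called higher (log2 change 0.24, limma adjusted p = 0.0459).

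In the list of the stress response to eIF2 phosphorylation, 5 of 10 genes were called lower and 0 higher. Of the 10 log2 changes 7 were negative and 3 positive. The positive ones, named after their values were seen, were ATF3 (0.24, limma adjusted p = 0.0659), ATF5 (0.10, limma adjusted p = 0.180) and DNAJC3 (0.03, limma adjusted p = 0.629). The ATF3 libraries at 10 Gy were all above those at 0 Gy. PPP1R15A (GADD34), the phosphatase subunit that restores eIF2, was at 97.2, 92.7 and 86.1 FPKM at 0 Gy and 59.8, 58.1 and 59.7 FPKM at 10 Gy. TRIB3, a pseudokinase target of ATF4, was at 17.9, 16.0 and 16.7 FPKM at 0 Gy and 10.4, 10.4 and 10.6 FPKM at 10 Gy. Neither overlapped between the doses, and these were the 2 genes of the lists called lower by at least 1.3-fold on the log2(FPKM + 1) scale (PPP1R15A, log2 change -0.63 ± 0.046 SE, limma adjusted p = 0.000505, and TRIB3, log2 change -0.63 ± 0.044 SE, limma adjusted p = 0.000439). ATF4, the transcription factor whose translation rises when eIF2 is phosphorylated, was at 166, 152 and 150.4 FPKM at 0 Gy and 124, 125 and 129.9 FPKM at 10 Gy (log2 change -0.30 ± 0.046 SE, limma adjusted p = 0.00335). Its fall was also called on the TPM scale (log2 change -0.18, limma adjusted p = 0.00766). CHAC1, named after its values were seen, was called lower with a smaller change on that scale (log2 change -0.35 ± 0.092 SE, limma adjusted p = 0.0249), although the ratio of its mean FPKM (0.754) was past 1.3-fold.

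The hypusine list holds the enzymes that make the modified lysine of eIF5A from spermidine and those that make the polyamines, and 4 of its 5 tested genes fell. All 4 (ODC1, SRM, SMS and AMD1) act in polyamine synthesis. DOHH, which completes the modification, was not called (log2 change -0.13 ± 0.063 SE, limma adjusted p = 0.147), with overlapping doses. DHPS, which starts that modification, was under the minimum level at 0.889, 0.649 and 1.014 FPKM at 0 Gy and 1.202, 1.18 and 0.922 FPKM at 10 Gy, with overlapping doses and no test. Of the elongation factors 3 of 6 tested fell. EEF1A2, an elongation factor of muscle and nerve, was below the minimum level and not tested, and it is named after its values were seen. It was at 0.563, 0.477 and 0.527 FPKM at 0 Gy and 1.16, 1.26 and 1.13 FPKM at 10 Gy, without overlap. EEF2, the translocase, was at 598, 582 and 587 FPKM at 0 Gy and 537, 525 and 542 FPKM at 10 Gy (log2 change -0.14 ± 0.038 SE, limma adjusted p = 0.0283), a fall that was not called on the TPM scale (log2 change -0.01, limma adjusted p = 0.79). EEF1G is listed at 0 in every library. Overlap with the exons of other genes was measured for the initiation factor genes alone, so the listed levels of EEF1G and DHPS are uncertain. Of the other initiation proteins 7 of 12 fell, of the poly(A)-binding and eIF4E-partner genes 2 of 8, and of the termination and recycling genes 1 of 5, with 0 higher in each of these lists. The last 2 shares lie near that over all genes. All counts by list are on the deposited scale, whereas on the TPM scale more genes of the lists together were higher than lower.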

How the data were processed

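RNA of MDA-MB-231 shSCR cells was sequenced by a provider from polyA libraries with paired-end reads, and the submitters' processing notes name HISAT2 and GRCh38; the counting program is not given in the sources used here. The authors deposited FPKM per gene, and their coordinates and gene lengths matched GENCODE 29 for 56 of 56 members. Samples were grouped by dose from the labels. Whole reads were recovered from FPKM, gene length and an inferred depth (100% within 0.05 of a whole number) and used for depth and for the read numbers given for single genes, not in the tests.

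Changes were tested on log2(FPKM + 1) with limma 3.58.1 (R 4.3.3; eBayes with an intensity trend) over genes averaging 1 FPKM or more. Calls used a Benjamini-Hochberg adjusted p under 0.05. The procedure was also run on simulated data, and the outcome is not given here. These data held no difference in scaling between the doses, so they do not bear on how the calls depend on scaling. Ratios were tested by exact permutation, two-sided (scipy 1.17.1). Members were compared with all genes by counts and medians, without a test over a list. Shared sequence was read as words of 100 bases in GENCODE 29 exons, and promoters from RefSeq.

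The members and lists were chosen with earlier results of these data known. Values are given for every called member, the most and least abundant tested member of each class of 3 or more and the members of the pairs, and of other genes for those called at 1.3-fold or more and for ATF4, MTOR, DHPS and EEF2. Alternatives covered the pseudocount, the filter, the scaling, the replicate block, the trend, coding genes alone and each library left out. The values of 1 Y-linked member are not reported here. The strand of the libraries is not given in the sources used here.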

Additional observations from a re-analysis of the deposited data

How the results depend on the processing

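The members' position below the median of all genes held under every alternative (34 of 45 to 47 of 54 members below it, and 39 to 41 of 51 elsewhere), while counts of calls depended on the scaling and on single libraries. Of the members, 28 were lower and 0 higher as reported, 8 and 5 on the TPM scale, and 15 and 2 with the library factor removed. With upper quartile scaling 30 were lower and 0 higher, and with median-of-ratios scaling 27 and 0. Leaving out 1 library gave 16 to 27 lower (17 without 10 Gy library 1, 16 without 10 Gy library 2). With no filter on low values 20 of 54 tested members were lower, and with a minimum of 5 FPKM 29 of 45. Over all genes, 1443 were higher and 2874 lower as reported, 3127 and 1071 on the TPM scale, 2295 and 1651 with the factor removed, 874 and 2734 at a minimum of 5 FPKM, and 1097 and 1815 with no filter. Leaving out 1 library gave 846 to 1388 higher and 1805 to 2621 lower. Of the other translation genes, 26 were lower and 3 higher as reported, 9 and 12 on the TPM scale and 13 and 7 with the factor removed, 14 were lower with no filter, and leaving out 1 library gave 14 to 24 lower. Of the called genes, 66.6% were lower as reported, 25.5% on the TPM scale and 41.8% with the factor removed. TPM and the removal of the factor each divide a library by a total of its own, which upper quartile and median-of-ratios scaling do not. The cause of the differences between the counts was not tested.

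On the TPM scale these log2 changes turned positive: EIF2A 0.0558, EIF2AK4 0.0955, EIF2B5 0.0167, EIF2D 0.0338, EIF3B 0.0127, EIF3E 0.0610, EIF3H 0.101, EIF3L 0.118, EIF3M 0.0178, EIF4A2 0.0269, EIF4E 0.0227, EIF4EBP2 0.0636, EIF4G2 0.0422 and EIF4G3 0.112. With the library factor removed, those of EIF2A (0.00495), EIF2AK4 (0.0481), EIF3E (0.0085), EIF3H (0.0486), EIF3L (0.0662), EIF4EBP2 (0.0126) and EIF4G3 (0.0621) did. Leaving out 1 library gave both signs for EIF2AK3 (-0.0147 to 0.0690), EIF2AK4 (-0.0718 to 0.0295), EIF3C (-0.344 to 0.0170), EIF3F (-0.0234 to 0.0709), EIF3H (-0.0518 to 0.00912), EIF3L (-0.0404 to 0.0116) and EIF4G3 (-0.0316 to 0.0230). None of these genes but EIF3B and EIF4A2 was called as reported.

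The libraries of the 2 doses share only a number: deviations of same-numbered libraries correlated at -0.0405, -0.0349 and -0.101, and no library correlated best with its own number. With the replicate block, 23 members were lower and 0 higher, and 1137 genes were higher and 2366 lower. With 3 libraries a dose, ratios could not reach an exact permutation p under 0.1.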
